A study of Mus musculus with 9 samples.

Results

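The 81 genes described here are named as genes for proteins of the cytosolic ribosome. They were all the rows of a deposited table of 17596 genes whose symbol is Rpl or Rps followed by a number and at most 1 letter, or is Rplp0, Rplp1, Rplp2 or Rpsa. The rule used symbols and no measured value, and it took 50 genes of the large subunit and 31 of the small subunit. RNA was sequenced from B cells of the spleen of C57BL/6J background mice aged 6 to 8 weeks by the study's methods. The control mice carried Mb1Cre, which expresses Cre recombinase in the B lineage, and the Mct1f/fMb1Cre mice (written Mctf/fMb1Cre in some labels) carried the same Cre and both copies of a floxed allele of Mct1, the monocarboxylate transporter that the table lists as Slc16a1. Cells were untreated on day 0 (2 Mb1Cre and 2 Mct1f/fMb1Cre libraries) or cultured for 3 days with LPS at 10 μg/mL and IL-4 at 50 ng/mL (2 and 3 libraries), a mixture that makes B cells grow, divide and switch antibody class. Both genotypes carried Cre, so no group shows B cells without it.

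Each cytosolic ribosome holds 1 copy of nearly every ribosomal protein, so their genes are usually expressed together and at a high level. Their mRNAs begin with a run of pyrimidines, the 5′ terminal oligopyrimidine (TOP) motif, through which mTORC1 and LARP1 regulate their translation. Naïve B cells are small and make little protein, and activated B cells build many ribosomes before they divide and secrete antibody. A few of the proteins also exist as paralogs, encoded by a second gene that is often limited to certain tissues. Most of the genes have many processed pseudogenes, copies of the mRNA inserted elsewhere in the genome, which short reads cannot always tell from the gene itself.

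Values are fragments per kilobase of transcript, scaled by the number of mapped fragments (FPKM), 1 value per gene and library, so a level is relative to the rest of that library. The sums over all genes lay between 477079 and 491459 on day 0 and between 547355 and 563586 on day 3. Read numbers were not part of the values, so depth is unknown, and the labels name no mouse, litter or sequencing batch, so the p-values measure only the spread between these libraries. Slc16a1 had 3.71 to 4.33 FPKM in the 4 libraries of day 0, and on day 3 it had 22.6 and 22.9 FPKM in Mb1Cre and 10.8, 9.81 and 9.50 FPKM in Mct1f/fMb1Cre B cells, so the genotype was visible in this gene on day 3 and rests on the labels on day 0. The summed level of 7 B cell markers was 4392 to 4827 FPKM on day 0 and 2332 to 2418 FPKM on day 3, and 5 of the 7 fell in each genotype. Ddx3y, a Y-linked gene, had at most 0.24 FPKM in 3 day 0 libraries, both Mb1Cre ones included, 31.1 FPKM in the first Mct1f/fMb1Cre library of day 0 and 14.7 to 16.9 FPKM in all 5 libraries of day 3.

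How far the rows can be told apart depends on their sequences. Every stretch of 50 bases of each gene's transcript was looked for in the 141767 transcripts that GENCODE annotates on GRCm38. A median of 53.5% of a gene's stretches also occurred in another gene or pseudogene (range 0 to 98.6%), and 46 of the 81 genes shared more than 50% of them. Rpl3l and Rpl39l were among the 3 genes that shared none at this length. Rps27, a small subunit protein with a zinc finger (chr3:90212667-90213648 in GRCm38.p6), and its paralog Rps27l (chr9:66944624-66949522) are the pair on which much of what follows turns, so both coding sequences are shown. Capitals mark the 61 of 255 bases at which they differ, which leaves 76.1% identity.

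Rps27: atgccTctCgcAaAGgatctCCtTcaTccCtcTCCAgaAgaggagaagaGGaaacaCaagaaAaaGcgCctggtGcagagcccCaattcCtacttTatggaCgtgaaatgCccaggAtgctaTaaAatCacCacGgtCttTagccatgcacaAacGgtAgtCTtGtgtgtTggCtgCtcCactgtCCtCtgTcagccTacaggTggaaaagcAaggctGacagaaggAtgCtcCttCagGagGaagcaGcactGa
Rps27l: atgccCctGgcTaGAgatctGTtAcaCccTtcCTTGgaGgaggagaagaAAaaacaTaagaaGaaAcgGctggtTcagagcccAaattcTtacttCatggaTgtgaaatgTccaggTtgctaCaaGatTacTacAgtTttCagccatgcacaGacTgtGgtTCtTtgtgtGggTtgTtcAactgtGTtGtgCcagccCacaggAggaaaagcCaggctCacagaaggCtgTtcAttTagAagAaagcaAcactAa

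The differences touch 54 of 85 codons, the stop codon included, and the longest stretch without one is 11 bases, so a read of 50 bases within the coding sequence would tell the pair apart. The same was not true of Rps27 and Rps27rt, a separate row of the table, which holds 98.6% of the 50-base stretches of Rps27.

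The RefSeq table of promoters for GRCm38.p6 held 73 promoters of 61 of the 81 genes. A run of at least 8 pyrimidines within 25 bases of the start site was present in 46.6% of them, compared with 19.7% of all 32851 promoters in that table. The motif CCGGAAG, on either strand and anywhere in the 300 bases of a promoter, was present in 35.6% compared with 8.86%, and AAGATGG, likewise on either strand, in 15.1% compared with 6.34%. Pyrimidine runs and the motifs may overlap. The 60 bases around the start (45 before it and 15 from it on) are shown for the genes with the largest and the smallest change on activation that have an entry, with pyrimidine runs of at least 8 bases and CCGGAAG in capitals. The first 4 rose most and the last 3 fell or changed least.

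Rps27l, chr9:66946041-66946100, forward strand: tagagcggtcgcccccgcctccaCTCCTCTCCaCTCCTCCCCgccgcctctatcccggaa
Rps2, chr17:24720018-24720077, forward strand: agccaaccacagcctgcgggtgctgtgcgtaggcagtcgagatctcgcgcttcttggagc
Rplp0, chr5:115559422-115559481, forward strand: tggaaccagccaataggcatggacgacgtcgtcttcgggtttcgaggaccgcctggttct
Rpl28, chr7:4792920-4792979, forward strand: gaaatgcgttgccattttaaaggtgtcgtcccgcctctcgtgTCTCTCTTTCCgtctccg
Rps27, chr3:90213634-90213693, reverse strand: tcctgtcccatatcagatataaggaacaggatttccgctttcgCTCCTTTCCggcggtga
Rps21, chr2:180257334-180257393, forward strand: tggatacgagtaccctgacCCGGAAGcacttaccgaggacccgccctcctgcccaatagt
Rpl37a, chr1:72711215-72711274, forward strand: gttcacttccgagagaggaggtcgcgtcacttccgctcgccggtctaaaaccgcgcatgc

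Pyrimidine runs stood next to the start of Rps27l and Rpl28, which rose, and of Rps27, which did not. These windows of Rps2 and Rplp0, which rose, held no run of at least 8 bases. Their longest runs within 25 bases of the start were 6 and 7 bases, so a shorter run at the start is not excluded. CCGGAAG stood before the start of Rps21, which did not change significantly. Tested genes with an entry were split by a run of at least 8 pyrimidines within 25 bases of the start. The 31 with one had a median log2 change of 0.65 on activation of Mb1Cre B cells. The 26 without one had 0.62, a difference of a few hundredths. For CCGGAAG these medians were 0.67 in the 24 genes with it and 0.63 in the 33 without it.

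The genes were among the most abundant in every library. Of the 100 rows with the highest FPKM, 58 or 59 were ribosomal protein genes on day 0 and 62 to 64 on day 3. Their share of the summed FPKM was 19.4% and 19.8% in the Mb1Cre libraries and 19.4% and 20.4% in the Mct1f/fMb1Cre libraries on day 0. On day 3 it was 26.5% and 25.3% in Mb1Cre and 25.4%, 26.4% and 25.7% in Mct1f/fMb1Cre B cells. All 5 libraries of day 3 lay above all 4 of day 0, and the genotypes overlapped on both days. The mean share rose by 6.34 percentage points in Mb1Cre B cells (19.6% ± 0.285 to 25.9% ± 0.829, SD, n = 2 each, p = 0.333 by an exact two-sided permutation test, the smallest that 2 against 2 allow) and by 5.90 points in Mct1f/fMb1Cre B cells (19.9% ± 0.710, n = 2, to 25.8% ± 0.513, n = 3, exact p = 0.1, the smallest that 3 against 2 allow). The genotypes differed by -0.11 points on day 3 (exact permutation p = 0.8) and by 0.33 points on day 0 (exact p = 0.667). In such bulk samples, more B cells or fewer other cells and more ribosomal protein mRNA per cell cannot be told apart.

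**Figure D1:**
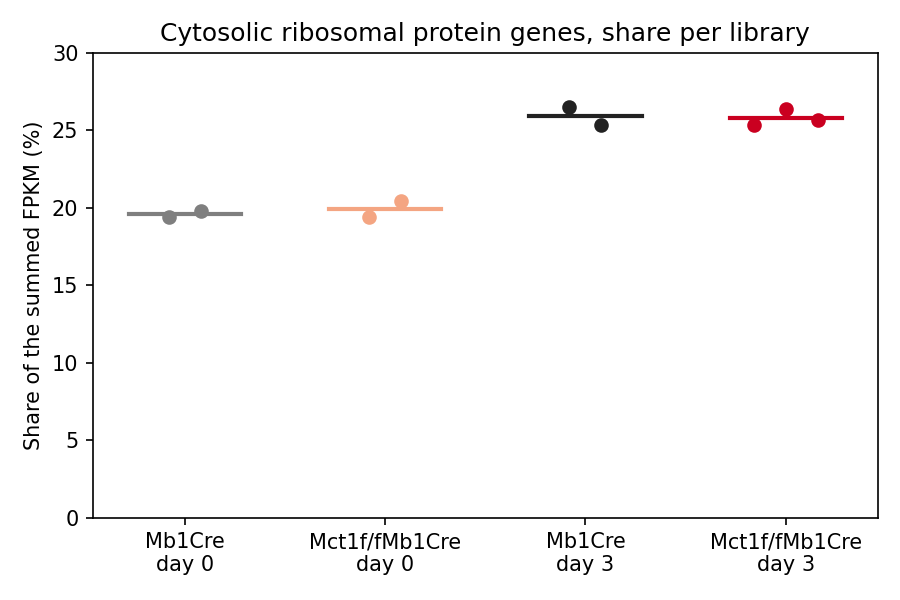
Share of the summed FPKM (%, vertical axis) that the 81 cytosolic ribosomal protein genes took in each library, by genotype and day. Points are libraries and bars are group means. The 4 libraries of day 0 lie between 19.4% and 20.4% and the 5 of day 3 between 25.3% and 26.5%.

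Levels varied widely among the genes although their products are needed in equal numbers. Those that averaged 1 FPKM or more across the 9 libraries, 77 of the 81, were tested. Their means ran from 31.6 FPKM for Rps6 to 3383 FPKM for Rps26, with a median of 1539 FPKM, and 59 were above 1000 FPKM and 2 below 100 FPKM. Rps26, whose protein lies at the exit of the mRNA channel, was followed by Rpl23a, near the exit of the peptide tunnel, at 3011 FPKM and by Rps27 at 2924 FPKM. The lowest after Rps6 were Rps27l at 92.8 FPKM and Rps15a at 119 FPKM. The other 4 genes were not tested. Rpl3l, a paralog of Rpl3 known from muscle, had 0.15 to 0.93 FPKM. Rpl10l and Rpl39l, paralogs known from the testis, had 0 to 0.05 and 0 to 0.41 FPKM, and Rpl32l had 0.12 to 1.44 FPKM. GENCODE annotates Rpl32l as a processed pseudogene and RefSeq as a protein-coding gene. The spread of the 77 levels within a group was nearly the same in all groups, with an SD of 1.17 to 1.22 on the log2 scale. Across the 77 genes, which share the same libraries, the log2 mean level had a Pearson's r of -0.01 with the log2 transcript length and of 0.17 with the share of stretches found elsewhere, given as a description.

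The lowest level belonged to a gene whose sequence is found in another row. Rps6, the small subunit protein that S6 kinase phosphorylates, had 22.0, 24.1, 26.1 and 25.9 FPKM on day 0, against 37.1, 34.1, 37.0, 39.8 and 38.3 FPKM on day 3 (Mb1Cre libraries first on each day). The row of Rps6-ps4, annotated as a transcribed pseudogene (chr2:75190995-75191854 in GRCm38.p6), had 1998 to 2172 FPKM on day 0 and 3399 to 3738 FPKM on day 3, which put it among the levels of the other genes. The pseudogene's row held between 98.7% and 99.0% of the sum of both rows in every library. Of the 50-base stretches of Rps6, 84.6% occur in Rps6-ps4, and 100% of those of the GENCODE transcript of Rps6-ps4 occur in Rps6. The reads behind the 2 rows were not available to tell which locus they came from. With both rows added, Rps6 ran from 2020 to 2198 FPKM on day 0 and from 3438 to 3775 FPKM on day 3. Rps27rt had 155 to 384 FPKM, between 4.78% and 11.4% of its sum with Rps27. Rpl31-ps12 had 163 to 379 FPKM beside 515 to 821 FPKM for Rpl31, and Rpl37rt had 447 to 671 FPKM, above the 207 to 422 FPKM of Rpl37 in every library. Values of these 4 genes, and of Rpl21, Rpl29, Rpl30, Rpl34 and Rplp2, which share at least 10% of their stretches with a row outside the symbol rule, are uncertain to that extent. Within the rule, Rpl32 shares 14.5% of its stretches with Rpl32l. Other genes share stretches with copies that mostly have no row here, among them Rps12 (90.1%), Rpl36a (85.5%) and Rps27a (71.9%). How reads that match such copies were counted is not known, so these values are uncertain too.

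**Figure D2:**
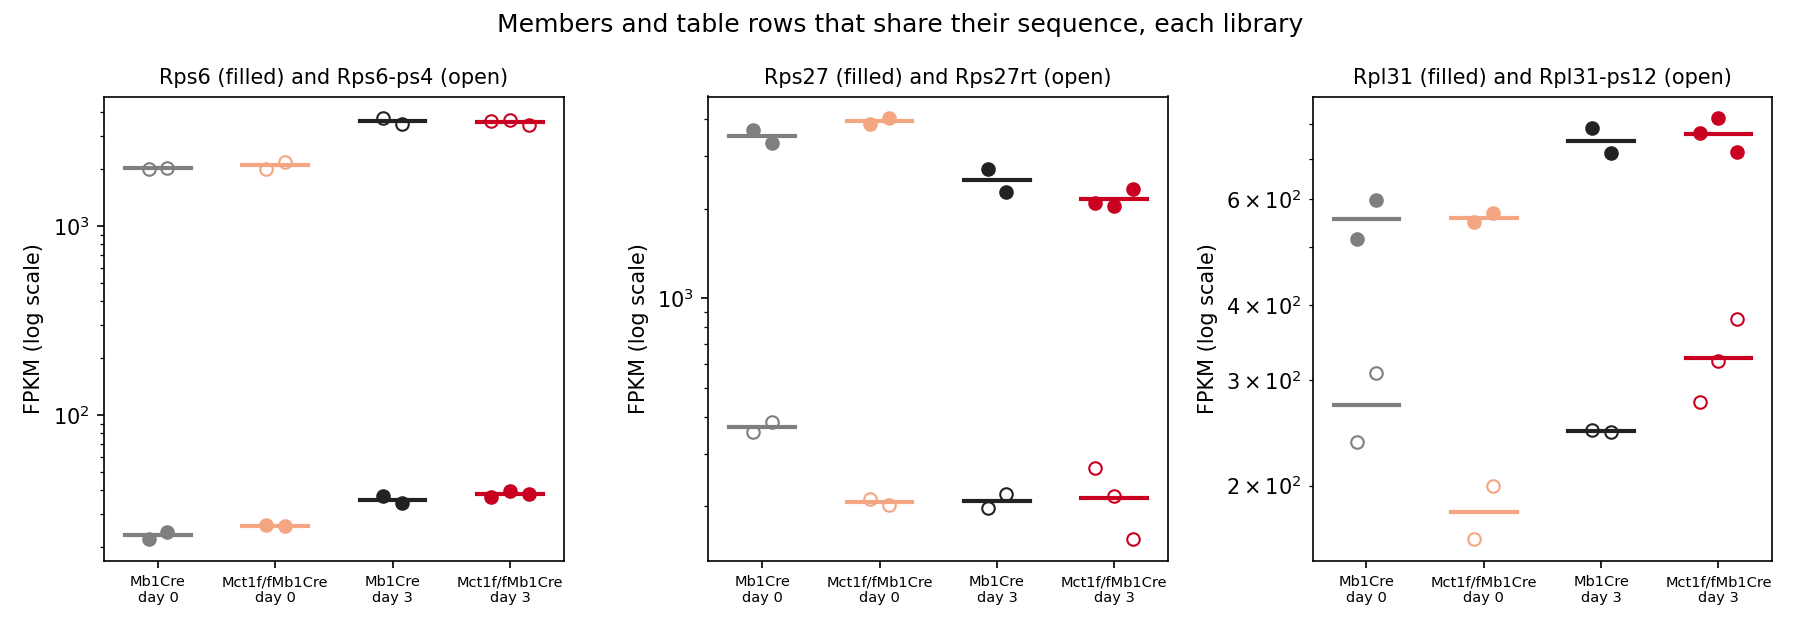
FPKM (vertical axis, log scale) in each library of Rps6, Rps27 and Rpl31 (filled points) and of the rows Rps6-ps4, Rps27rt and Rpl31-ps12 (open points), which share most or part of their sequence. Bars are group means. Rps6-ps4 lies far above Rps6 in every library, and the other copies lie below their genes.

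Activation was examined by comparing day 3 with day 0 within each genotype, on log2(FPKM + 1) with limma and p-values adjusted over all 10823 tested genes. A call needed an adjusted p below 0.05 together with a change of more than 0.5 on the log2 scale. In Mb1Cre B cells 52 of the 77 genes rose and 0 fell, where 24.8% of all tested genes rose and 33.0% fell. In Mct1-deficient B cells 45 rose and 1 fell, against 23.4% and 33.2% of all genes, and 43 of the genes rose in both genotypes. The median change was 0.63 in Mb1Cre and 0.54 in Mct1-deficient B cells on the log2 scale, a median fold of 1.55 and 1.46, where the median of all tested genes was -0.12 and -0.14. When any size of change was allowed, 71 genes rose and 1 fell in each genotype, against 37.0% and 47.5% of all genes in Mb1Cre and 36.4% and 49.1% in Mct1-deficient B cells. The 46 tested large subunit genes had a median of 0.69 and the 31 small subunit genes 0.60 in Mb1Cre B cells, and 0.60 and 0.50 in Mct1-deficient B cells.

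The number called depended on how the libraries were scaled. With equal totals 32 genes rose and 1 fell in Mb1Cre and 28 and 1 in Mct1-deficient B cells, with a median change of 0.43 and 0.37 where that of all genes was -0.31 and -0.30. On this scale 19.1% and 18.5% of all tested genes rose. Quantile normalization, which forces the highest rows of all libraries to the same values, left 14 rising and 2 falling in Mb1Cre, and 16 and 1 in Mct1-deficient B cells. The median change of the ribosomal protein genes stayed above that of all genes under each of these scalings.

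RNA of other cells also moved between the days. The summed level of 12 myeloid markers was 1291 to 2460 FPKM on day 0 and 31.7 to 45.6 FPKM on day 3. For 11 erythroid and platelet markers these ranges were 133 to 243 and 7.03 to 10.5 FPKM, and for 11 T and NK cell markers 93.0 to 104 and 25.2 to 29.9 FPKM. One of these markers, of the erythroid and platelet list, was below 1 FPKM in every library. Their part in the rise was not tested. In the Mb1Cre libraries, activation and the difference in Ddx3y cannot be told apart. The Mct1f/fMb1Cre libraries of day 0 differed from each other in Ddx3y. The genotype comparison on day 0, and every result that uses day 0, therefore holds an imbalance in Ddx3y, and its part was not tested.

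**Figure D3:**
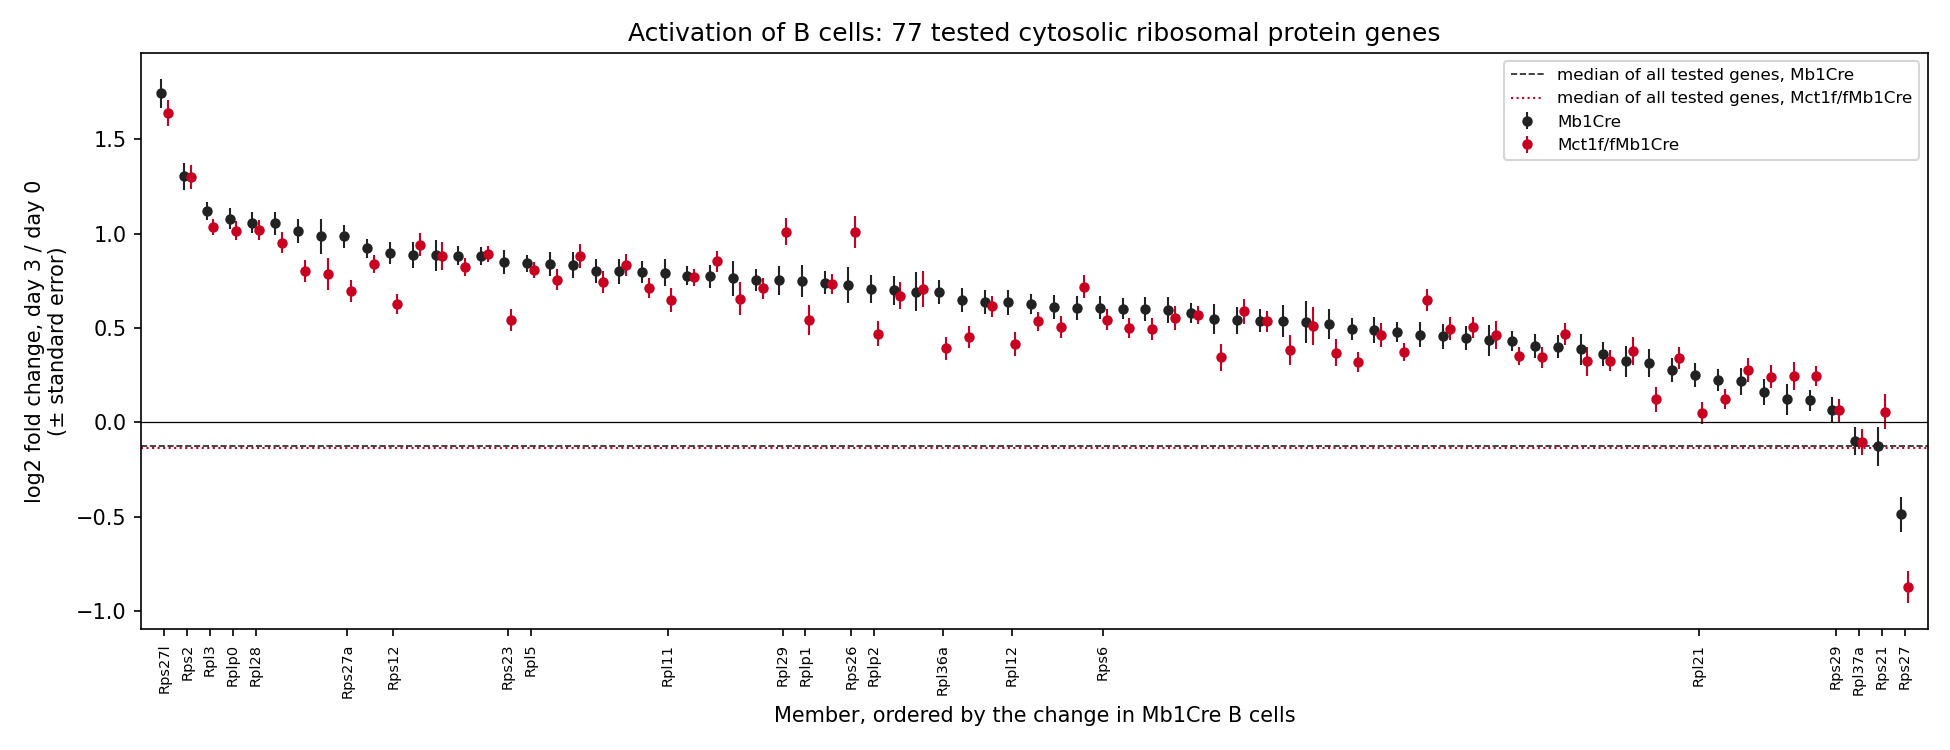
Log2 fold change between day 3 and day 0 (vertical axis, ± standard error) of the 77 tested genes in Mb1Cre (black) and Mct1f/fMb1Cre (red) B cells, ordered along the horizontal axis by the change in Mb1Cre B cells, with names for 22 of them. Broken lines are the medians of all tested genes at -0.12 and -0.14. Nearly all genes lie above 0 in both genotypes, with Rps27l at the upper and Rps27 at the lower end.

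Rps27l rose most, and on the deposited scale Rps27 was the only one of the 77 genes with a significant fall. Rps27l had 44.4 and 40.2 FPKM in Mb1Cre and 37.1 and 43.4 FPKM in Mct1f/fMb1Cre B cells on day 0, and 145 and 142 FPKM against 120.5, 134 and 128 FPKM on day 3. The days did not overlap. Its log2 fold change came to 1.74 (standard error 0.0758, adjusted p = 1.99e-09 from limma), a fold of 3.35, in Mb1Cre and 1.64 (standard error 0.0692, adjusted p = 1.44e-09), a fold of 3.12, in Mct1-deficient B cells. Rps27 had 3669.6 and 3316 FPKM in Mb1Cre and 3833 and 4041 FPKM in Mct1f/fMb1Cre B cells on day 0, the highest level of any ribosomal protein gene in each of these libraries. On day 3 it had 2715 and 2279 FPKM in Mb1Cre and 2082, 2044 and 2334 FPKM in Mct1f/fMb1Cre B cells, and again the days did not overlap. It fell by 0.49 on the log2 scale in Mb1Cre (standard error 0.0932, adjusted p = 4.88e-04 from limma), short of the fold limit and so not called, and by 0.87 in Mct1-deficient B cells (standard error 0.0851, adjusted p = 1.90e-06). The ratio of Rps27 to Rps27l, both per length, was 82.7, 82.5, 103 and 93.0 on day 0 and between 15.3 and 18.7 on day 3. The share of Rps27l in the sum of both rose from between 0.960% and 1.20% to between 5.08% and 6.14%, so Rps27 remained the main form. With the row of Rps27rt added, Rps27 fell by 0.52 in Mb1Cre and by 0.81 in Mct1-deficient B cells, past the limit in both.

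**Figure D4:**
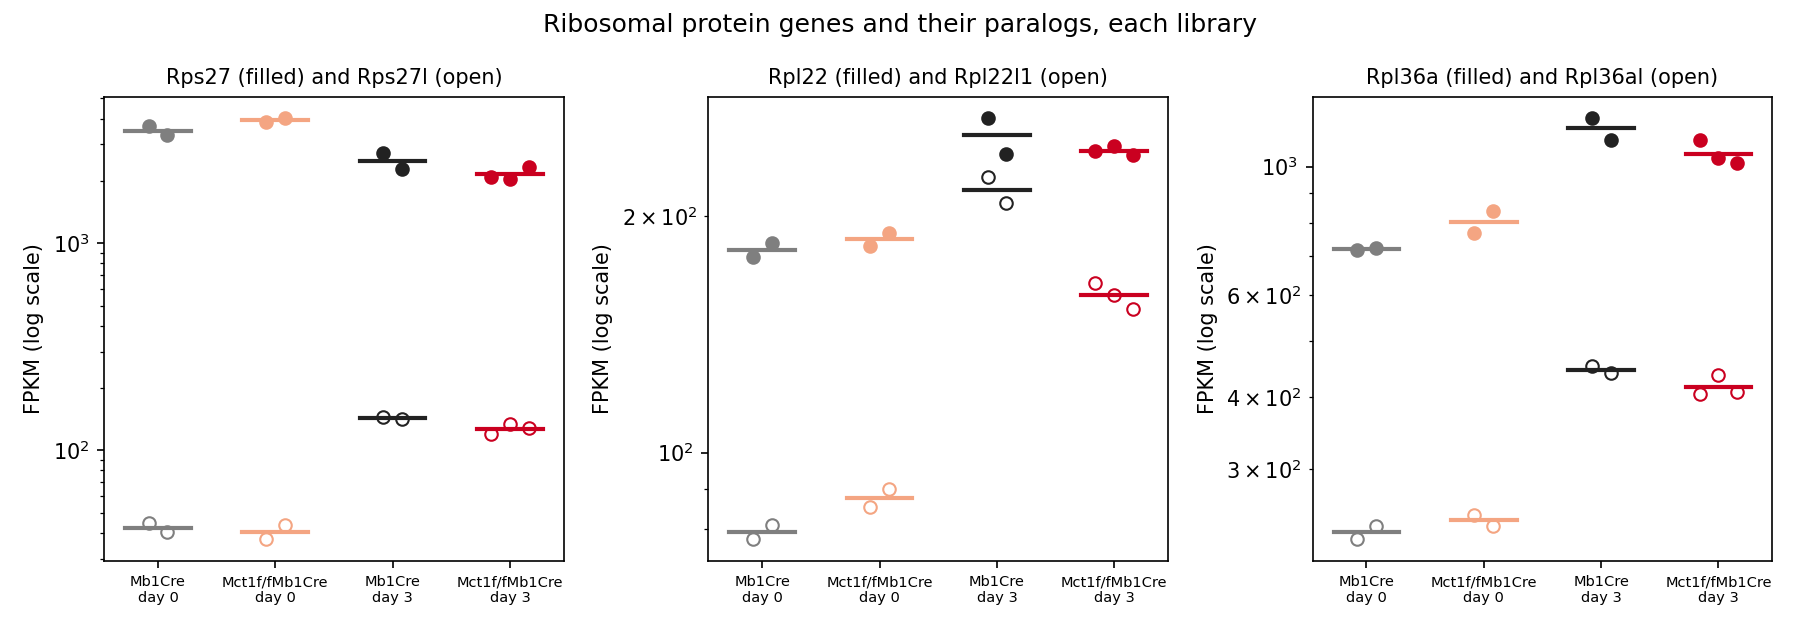
FPKM (vertical axis, log scale) in each library of Rps27, Rpl22 and Rpl36a (filled points) and of their paralogs Rps27l, Rpl22l1 and Rpl36al (open points), by genotype and day, with bars at the group means. Rps27 and Rps27l move in opposite directions between the days, towards each other, and Rpl22l1 rises less in Mct1f/fMb1Cre (152 to 164 FPKM on day 3) than in Mb1Cre B cells (208 and 224 FPKM).

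Other large rises were those of genes for core parts of both subunits. Rps2, at the mRNA entry channel, had 1478, 1652, 1488 and 1598 FPKM on day 0, against 3991, 3729, 3670.1, 3913 and 3819 FPKM on day 3, a log2 change of 1.30 in each genotype (standard error 0.0696 and 0.0636). Rpl3, near the catalytic centre, had 926, 926, 933 and 936 FPKM on day 0, against 2063, 1968, 1899, 1915 and 1927 FPKM on day 3, a change of 1.12 in Mb1Cre and 1.03 in Mct1-deficient B cells. The libraries of both days were far apart for both genes, and the genotypes were close. Rpl28 rose by 1.06 and 1.02, and Rplp0 by 1.08 and 1.02, in Mb1Cre and Mct1-deficient B cells.

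The stalk recruits the elongation factors and holds Rplp0 at its base with Rpl12 beside it, and Rplp1 and Rplp2 as its arms. All 4 genes rose in Mb1Cre B cells, by 1.08 (Rplp0), 0.75 (Rplp1), 0.71 (Rplp2) and 0.64 (Rpl12). In Mct1-deficient B cells Rplp0 and Rplp1 rose by 1.02 and 0.54, and the changes of Rplp2 at 0.47 and Rpl12 at 0.41 were below the fold limit. The difference between the genotypes in this change was not significant for any of the 4 (lowest adjusted p = 0.162 from limma). Rpl5 and Rpl11, which form a particle with the 5S rRNA and can bind MDM2, rose by 0.84 and 0.79 in Mb1Cre and by 0.81 and 0.65 in Mct1-deficient B cells. Of 9 genes for proteins of the peptide exit tunnel and its rim 5 rose in Mb1Cre and 4 in Mct1-deficient B cells, and of 7 at the entry and exit of the mRNA channel 5 and 3 rose. Of 19 genes mutated in Diamond-Blackfan anaemia, an inherited failure of red cell production, 11 and 12 rose, and Rps27 fell in Mct1-deficient B cells. These counts stand beside 52 and 45 of all 77 genes, and 24.8% and 23.4% of all tested genes, and nothing in them was tested as particular to a class.

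At the other end, some abundant genes hardly changed. Rps29 had 1332 to 1430.4 FPKM on day 0 and 1354 to 1503 FPKM on day 3, Rpl37a had 840.0 to 955 and 754 to 867 FPKM, and Rps21 had 993 to 1138 and 946 to 1223 FPKM. The days overlapped for each of these. Their log2 changes in Mb1Cre B cells were 0.07 (95% interval -0.08 to 0.21), -0.10 (-0.26 to 0.07) and -0.13 (-0.36 to 0.10). Rpl21 changed by 0.25 in Mb1Cre, below the fold limit, and had a change of 0.05 in Mct1-deficient B cells, which was not significant.

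The spread among the genes was larger than the spread between libraries. When each library was set to its median ribosomal protein gene, 33 genes rose above that median and 22 fell below it at an adjusted p under 0.05 in Mb1Cre B cells, and 29 and 25 did so in Mct1-deficient B cells. This scale sets most other genes apart as well, since 86.9% and 87.9% of all tested genes passed. Relative to the median ribosomal protein gene, Rps27l stood at 1.16, Rps2 at 0.72, Rpl3 at 0.54, Rplp0 at 0.50 and Rpl28 at 0.48 in Mb1Cre B cells. Rps27 stood at -1.07, Rps21 at -0.71, Rpl37a at -0.68 and Rps29 at -0.52. Longer transcripts tended to have the larger changes, with a Pearson's r of 0.29 between the log2 length and the log2 change in each genotype over 77 genes that share the same libraries. The 38 longer ones had a median change of 0.67 and the 39 shorter ones 0.55 in Mb1Cre B cells.

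Ribosomal proteins outside the symbol rule were not uniform either. Rack1, a scaffold on the small subunit, had 935 to 1036 FPKM on day 0 and 1663 to 1853 FPKM on day 3 and rose by 0.76 in Mb1Cre and 0.89 in Mct1-deficient B cells. Fau, which encodes a small subunit protein fused to a ubiquitin-like one, had 1735 to 2164 FPKM and 1812 to 1987 FPKM, and its changes of 0.11 and -0.13 were not significant. Of 3 paralogs, Rpl36al rose by 0.93 and 0.76, Rpl7l1 changed by 0.50 (below the limit) and rose by 0.59, and Rpl22l1 rose by 1.43 and 0.85, in Mb1Cre and Mct1-deficient B cells.

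Genes that work with the ribosome rose to different extents from list to list. Of all tested genes 24.8% rose in Mb1Cre and 23.4% in Mct1-deficient B cells, and 33.0% and 33.2% fell. Regulators of TOP mRNAs rose about as often as all tested genes and the other lists more often, and no list was tested as a set. Of 42 ribosome biogenesis factors 33 rose in Mb1Cre and 35 in Mct1-deficient B cells and 0 fell, with the largest changes in Ncl, the nucleolar protein nucleolin (1.86 and 1.66), and Nhp2, a component of snoRNPs (1.55 and 1.58). Of 17 other genes with TOP mRNAs or products that act in translation, 12 and 14 rose and 1 fell in each genotype. Npm1, which encodes nucleophosmin, changed most in both (1.98 and 1.71), followed by Hnrnpa1 in Mb1Cre (1.23) and Eef1g in Mct1-deficient B cells (1.20). Of 11 chaperones and importers of ribosomal proteins 6 rose in each genotype, with Ipo5 first (1.46 and 1.64), then Dnajc2 in Mb1Cre (1.28) and Heatr3 in Mct1-deficient B cells (1.13). Of 13 regulators of TOP mRNAs 3 rose in each genotype and 2 and 1 fell, the largest changes being those of Eif4ebp1, a translation repressor under mTORC1 (2.03 and 1.83), and Larp1 (1.33 and 1.27). Of 78 genes for mitochondrial ribosomal proteins 57 and 50 rose and 1 fell in each genotype, with a median change of 0.72 and 0.69.

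The genotypes were then compared on each day. On day 3, 0 of the 77 genes differed between Mct1-deficient and Mb1Cre B cells by limma, where 2.42% of all tested genes did. With no limit on the fold change it was 0 of 77 against 15.2% of all genes. Of the 77, 9 had an unadjusted p under 0.05, as did at least 15.2% of all tested genes, since adjustment only raises p-values. The median difference was -0.01, as for all genes, and the 95% intervals of all 77 genes lay between -0.40 and 0.40. The lowest adjusted p was 0.0519, for Rps12. On day 0 it was again 0 of 77, against 0.277% of all genes and 0.416% with no limit. An unadjusted p under 0.05 was held by 6 genes, and the share of all genes at that limit is not given here. The median difference was 0.03, and the intervals lay between -0.30 and 0.38. Group ranges did not overlap on day 3 for 5 genes that were higher and 13 that were lower in Mct1-deficient B cells, 23.4% of the 77, where this held for 47.1% of all tested genes. On day 0 this was 19 higher and 2 lower, 27.3% of the genes against 38.4% of all.

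Libraries of the same group also differed across the whole set. In the first Mb1Cre library of day 3 all 77 genes were higher than in the second, by a median of 0.11 on the log2 scale, where 44.5% of all tested genes were higher. In the second Mct1f/fMb1Cre library of day 0, 76 of 77 genes were higher than in the first, by a median of 0.10, where 48.8% of all tested genes were higher in the first. The median difference between the genotypes was below both values on either day. Without the second Mct1f/fMb1Cre library of day 0 the median genotype difference on that day was -0.02, and without the first Mb1Cre library of day 3 that on day 3 was 0.04.

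The genes at the edges of the genotype comparison are given by their values. On day 3 the 4 highest in Mct1-deficient B cells were Rps26 (0.21), Rps10 (0.13), Rpl29 (0.13) and Rps21 (0.13), and the 5 lowest were Rps27 (-0.21), Rps12 (-0.18), Rps27l (-0.17), Rplp1 (-0.17) and Rps27a (-0.17), on the log2 scale. On day 0 the highest were Rps23 (0.19), Rps27 (0.17), Rps6 (0.17), Rpl11 (0.17) and Rpl21 (0.16), and the lowest Rpl29 (-0.13), Rpl34 (-0.08), Rps26 (-0.07), Rps27l (-0.07) and Rps25 (-0.06). The row of Rps27rt had 354 and 384 FPKM in Mb1Cre and 211 and 203 FPKM in Mct1f/fMb1Cre B cells on day 0, and with it added the day 0 difference of Rps27 was 0.10 in place of 0.17. With Rps6-ps4 added, which held nearly all of the signal of both rows, that of Rps6 was 0.05 in place of 0.17.

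The difference between the genotype effects of the days, tested as an interaction, was not significant for any of the 77 genes. Of all tested genes 3.23% passed, and 9.42% with no fold limit. An unadjusted p under 0.05 was held by at least 9.42% of all tested genes and by 12 of the 77. The 9.42% is a lower limit, so no excess can be read from these numbers. The median of the 77 was -0.05, where that of all tested genes was -0.02. With 1 library left out at a time, the median of the 77 ranged from -0.10 to 0.003. The lowest values were those of Rps27 (-0.38), Rps23 (-0.31), Rpl36a (-0.30), Rps27a (-0.29) and Rps12 (-0.27), with adjusted p from 0.0534 to 0.0847 in limma. The highest were those of Rps26 (0.28), Rpl29 (0.26), Rps10 (0.18) and Rps21 (0.18). Without the second Mb1Cre library of day 3, Rps27 passed (-0.51, adjusted p = 0.0465 from limma).

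Set to the median ribosomal protein gene of each library, which takes out the shifts of the whole set, 6 of 77 genes passed between the genotypes on day 3, below the share of 8.46% of all tested genes, so their number says nothing particular about ribosomal protein genes. Rps26 was higher by 0.21 (adjusted p = 0.00797 from limma) and 5 genes were lower, namely Rps27 (-0.21), Rps12 (-0.18), Rplp1 (-0.17), Rps27a (-0.17) and Rpl12 (-0.16). On day 0 none passed on this scale, with 0 of 77 by limma. Rps26 had 2187 and 2512 FPKM in Mb1Cre and 2135 and 2329 FPKM in Mct1f/fMb1Cre B cells on day 0, which overlap, and 4021 and 3758 FPKM against 4113, 4951 and 4436 FPKM on day 3, which do not. Rps12, a protein of the small subunit's head, had 1879 and 1846 against 1915 and 2057 FPKM on day 0 and 3599 and 3343 against 3070.1, 3143 and 2984 FPKM on day 3. Its group ranges did not overlap on either day, with Mct1-deficient cells above the control on day 0 and below it on day 3. Without the first Mb1Cre library of day 3, 0 genes passed on that day, without the second 1 passed, and without the second Mct1f/fMb1Cre library 2 passed.

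The interaction on this scale was positive for Rps26 and Rpl29, and negative for Rps27, Rps23, Rpl36a, Rps27a and Rps12, which is 7 of 77 where 4.34% of all tested genes passed. These shares are not on an equal footing, because the scale takes out the shift shared by the ribosomal protein genes only. On the values as deposited none of the 77 passed, where 9.42% of all tested genes did with no fold limit. Rpl29, a large subunit protein, had 964 and 1092 against 899 and 980.5 FPKM on day 0 and 1758 and 1700.5 against 1757, 1995 and 1933 FPKM on day 3. Rps23, a protein of the decoding centre, had 1561 and 1673 against 1758 and 1942 FPKM on day 0 and 2967 and 2864 against 2751, 2742 and 2588 FPKM on day 3. For Rps23 neither day overlapped, and the genotypes changed places between the days. Rps27a, a small subunit protein made as a fusion with ubiquitin, had 816 and 793 against 844 and 906 FPKM on day 0 and 1691 and 1501 against 1437, 1421 and 1395 FPKM on day 3. Rpl36a had 718 and 724 against 767 and 839 FPKM and then 1215 and 1113 against 1109.9, 1034 and 1015 FPKM. The same change of places was seen in both. Left without 1 library at a time, between 1 and 9 genes passed, with 1 each without either Mb1Cre library of day 3, and with 3 each without the second Mb1Cre library of day 0, without either Mct1f/fMb1Cre library of day 0 or without the third Mct1f/fMb1Cre library of day 3.

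**Figure D5:**
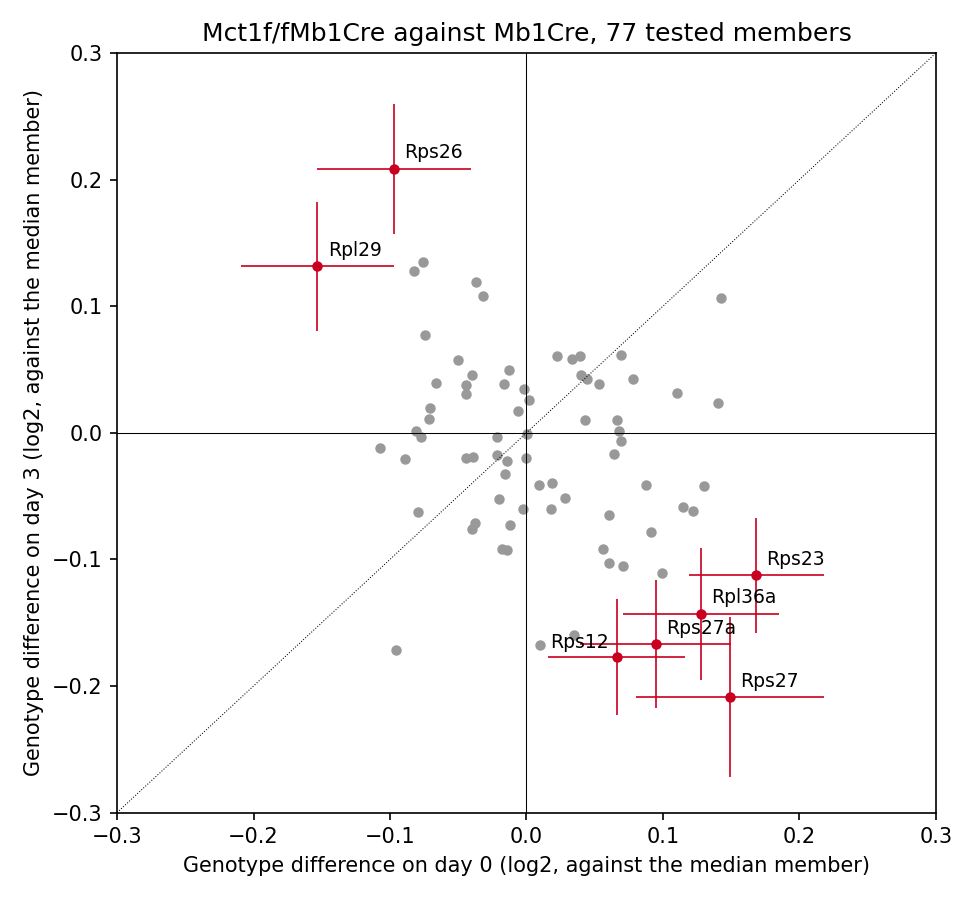
Difference between Mct1f/fMb1Cre and Mb1Cre B cells on day 0 (horizontal axis) and on day 3 (vertical axis), log2 against the median ribosomal protein gene of each library, for the 77 tested genes. The 7 genes in red, with standard errors, passed the test of the difference between the days, and the dotted line marks equal values. Rps26 and Rpl29 lie at the upper left and the other 5 at the lower right.

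Of the 5 ribosomal proteins described outside the symbol rule, Rpl22l1 was called in the interaction and the other 4 were not. It had 77.5 and 80.9 FPKM in Mb1Cre and 85.4 and 89.8 FPKM in Mct1f/fMb1Cre B cells on day 0, and 224 and 208 FPKM against 164, 159 and 152 FPKM on day 3. Mct1-deficient cells lay above the control on day 0 and below it on day 3, with no overlap on either day. The log2 difference was -0.44 on day 3 (standard error 0.0494, adjusted p = 2.52e-04 from limma, below the fold limit), 0.14 on day 0 (adjusted p = 0.351) and -0.59 for the interaction (standard error 0.0732, adjusted p = 0.00153, past the limit). Rpl22 itself, at 178 to 190.5 FPKM on day 0 and 239 to 267 FPKM on day 3, differed by -0.06 on day 3 (adjusted p = 0.451 from limma). The ratio of Rpl22 to Rpl22l1 was 2.12 to 2.29 on day 0, and on day 3 it was 1.19 and 1.16 in Mb1Cre and 1.47, 1.55 and 1.57 in Mct1f/fMb1Cre B cells (p = 0.1 by an exact two-sided permutation, the smallest possible). The day 3 differences of Rack1 (0.07), Fau (-0.08), Rpl36al (-0.10) and Rpl7l1 (0.10) were not significant. Of the 9 rows outside the rule that share at least 10% of the stretches of a ribosomal protein gene, 1 of them too low to be tested, Rpl31-ps12 was called in the interaction. It had 236 and 308 FPKM in Mb1Cre and 163 and 199 FPKM in Mct1f/fMb1Cre B cells on day 0, and 248 and 246 FPKM against 276, 323 and 379 FPKM on day 3, so it lay below the control on day 0 and above it on day 3 with no overlap. The interaction was 0.97 (adjusted p = 0.0164 from limma), and the differences on day 3 (0.39, adjusted p = 0.0847) and on day 0 (-0.58, adjusted p = 0.204) did not pass. Without the first or the second Mb1Cre library of day 3 the interaction was 0.97 and 0.96 with an adjusted p of 0.0574 and 0.0558 in limma, and did not pass. Rpl31 itself had an interaction of 0.03, and 0.29 with the row added (adjusted p = 0.136 from limma).

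No gene of the associated lists was called between the genotypes on day 3 by limma, where 2.42% of all tested genes were. This was 0 of the 42 biogenesis factors, 0 of the 17 translation genes, 0 of the 11 chaperones, 0 of the 13 TOP regulators and 0 of the 78 mitochondrial ribosomal protein genes. At least 15.2% of all tested genes had an unadjusted p under 0.05, a lower limit from which no excess can be read. Such a p was held by 12, 6, 4, 2 and 13 of the listed genes. Their largest differences, all below the fold limit, were those of Rrs1 (0.24) and Polr1b (0.24), which act in ribosome assembly and rRNA transcription, of Npm1 (-0.21) and Eif4b (0.17), of Dnajc2 (-0.17) and Pdcd2l (-0.15), and of Eif4ebp2 (0.26) and Eif4ebp1 (-0.22). Of 11 genes of the p53 response, which free Rpl5 and Rpl11 can trigger, 3 were lower and 0 higher in Mct1-deficient B cells on day 3. Of all tested genes 2.42% differed. With activation 8 of the 11 rose in each genotype, where 24.8% and 23.4% of all tested genes rose. The largest rises were those of Cdkn2a (3.61 and 2.30) and Phlda3 (3.06 and 2.81), and 1 gene fell in Mct1-deficient B cells. A part of Rpl5 and Rpl11 in these changes was not tested. Cdkn2a, which encodes the MDM2 inhibitor ARF and p16, had 0.12 to 0.45 FPKM on day 0, 14.9 and 14.2 FPKM in Mb1Cre and 4.21, 5.99 and 4.14 FPKM in Mct1f/fMb1Cre B cells on day 3, a difference of -1.44 (adjusted p = 1.26e-04 from limma). Cdkn1a, the cell cycle inhibitor p21, had 35.6 and 34.4 FPKM against 17.5, 17.9 and 18.6 FPKM on day 3, a difference of -0.92 (adjusted p = 1.26e-04 from limma). The third was Phlda3 at -0.59.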

How the data were processed

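RNA-seq values of 9 libraries in 4 groups were used. The authors deposited FPKM for 17596 genes, made by the sequencing institute, and the submitters' processing notes name Bowtie2, GRCm38 and mm10. The annotation and the counting of reads that match several loci are not given in the sources used here, and RNA extraction is described with different kits in the labels and the methods. Depth is unknown and no columns of other samples were used (0).

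Values were used as log2(FPKM + 1), which understates changes of low genes, and were not rescaled. The 10823 genes averaging 1 FPKM or more went into limma 3.58.1 (R 4.3.3), fitted with 1 mean per group, a spread shared by the 4 groups, a trend and Benjamini-Hochberg adjustment. The study's methods name limma with a log2 limit of 1, in a passage that follows public patient data, and do not say whether it was used for these values. That limit was run as an alternative. Shares and ratios were compared by exact permutation in Python 3.11.15, and figures were drawn with matplotlib 3.10.9. The procedure was tested on simulated data.

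The members and lists were chosen with earlier results of these data known. Named were, per comparison, the 5 genes changed most upwards and the 5 changed most downwards, before and after centring, the 3 highest and 3 lowest, the untested genes, the stalk, 5S particle and restricted paralogs, the ribosomal proteins outside the rule, and the 2 largest changes of each other list. A few genes that this rule names are not reported here. Other genes with copies in other rows were named after their values were seen. Transcripts were those of GENCODE vM21 for GRCm38, and gene positions and promoters those of RefSeq for GRCm38.p6. Alternatives were pseudocounts of 0.1 and 5, no filter or a mean of at least 5 FPKM, 4 scalings, centring, only the groups compared, a replicate block, no trend, log2 limits of 0 and 1, each library left out and, added after seeing the data, copies summed into their gene.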

Additional observations from a re-analysis of the deposited data

Results flagged for a closer look

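For 7 ribosomal protein genes the genotype difference on day 3 was unlike that on day 0 after each library was set to its median ribosomal protein gene, by the interaction term of limma. It was 0.31 for Rps26 (adjusted p = 0.0165) and 0.28 for Rpl29 (0.0273), and -0.36 for Rps27 (0.0239), -0.28 for Rps23 (0.0115), -0.27 for Rpl36a (0.0424), -0.26 for Rps27a (0.0431) and -0.24 for Rps12 (0.0382), on the log2 scale. All 7 kept their sign in each of 12 other settings of this test. Rps26 and Rps23 stayed past the threshold in 10 of the 12, Rps27 in 9, Rpl29 in 7, Rps12 in 5, and Rpl36a and Rps27a in 2. On the values as deposited none of the 7 passed. The 7 are among 77 genes where 4.34% of all tested genes passed on this scale, and without either Mb1Cre library of day 3 only 1 gene passed. The 4.34% is not an even background, because the scale takes out the shift shared by the ribosomal protein genes only.

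Outside the symbol rule, the interaction of limma was -0.59 for Rpl22l1 (adjusted p = 0.00153), -1.30 for Cdkn2a (adjusted p = 0.00525) and -0.87 for Cdkn1a (adjusted p = 0.00441), and it was 0.97 for Rpl31-ps12 (adjusted p = 0.0164), a row that shares sequence with Rpl31. Rpl22l1 and Cdkn1a were called in all 21 other settings. Cdkn2a was called in 19 of 20 and not with a pseudocount of 0.1 (adjusted p = 0.157 in limma). Rpl31-ps12 was called in 18 of 21, and not without either Mb1Cre library of day 3 (adjusted p = 0.0574 and 0.0558) or without a filter on low values (0.0813). The labels give no batch, so a batch that differed between the days or genotypes was not tested. The day 0 libraries of the genotypes also differed in Ddx3y. This imbalance enters every interaction given here, and its part was not tested.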

How the results depend on the processing

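The number of ribosomal protein genes called on activation was 33, 16 and 7 in Mb1Cre and 29, 17 and 5 in Mct1-deficient B cells with equal totals, quantile normalization and centring on the median ribosomal protein gene. It was 7 in each with a log2 limit of 1, and with no limit 72 in Mct1-deficient B cells. Without 1 library it lay between 49 and 59 and between 40 and 52. With equal totals, quantile normalization and centring, 60.1%, 56.0% and 70.0% of all tested genes were called in Mb1Cre B cells. In Mct1-deficient B cells 58.6%, 54.5% and 69.3% of all tested genes were called. The median change, 0.63 and 0.54 as reported, was 0.43 and 0.37 with equal totals, 0.54 and 0.48 with the totals of other genes, 0.84 and 0.76 with median-of-ratios scaling, 0.24 and 0.19 with quantile normalization, and 0.045 and -0.012 after centring, where it is near 0 by construction. Without 1 library it ranged from 0.56 to 0.68 and from 0.52 to 0.61. Rps29 in Mb1Cre (-0.52) and Rpl21 in Mct1-deficient B cells (-0.51) changed sign after centring, for the same reason. The genotype counts on both days were 0 under every alternative run, and the interaction gave 0 to 1 without 1 library. On the centred scale, without 1 library, the counts lay between 0 and 8 (day 3), 0 and 1 (day 0) and 1 and 9 (interaction), and the last was 4 with a pseudocount of 0.1; the cause was not tested. Leaving 1 library of a pair assumes that the lone library varies like the other groups. Of 1090 values of named genes under alternatives, 1071 stayed on their side of the threshold.

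With the replicate number as a block, 52 and 47 genes were called on activation and 3 in place of 7 in the centred interaction. The labels do not say that a number marks a shared mouse or day, and same-numbered libraries did not all deviate together (r from -0.12 to 0.06 across all genes and from -0.21 to 0.20 across ribosomal protein genes), so the numbers were not taken as pairs. Without read counts, counting error could not be separated from other spread.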
